A study of Arabidopsis thaliana with 27 samples.

Results

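The genes described are 116 genes of the plastid and mitochondrial genomes of Arabidopsis, taken as every row of the count table whose identifier starts with ATCG (plastid) or ATMG (mitochondrial) and whose counts summed over the 27 libraries were at least 100. They were 88 of 133 plastid rows and 28 of 152 mitochondrial rows, out of 32833 genes in all. Of the remaining plastid rows, 28 had summed counts from 1 to 99 and 17 had none, and of the remaining mitochondrial rows 61 had counts from 1 to 99 and 63 had none. The members with the fewest counts were ATCG00200 (108) and ATCG00610 (113) in the plastid and ATMG01370 (170) and ATMG01320 (171) in the mitochondrion, and the rows nearest below the minimum were ATCG00410 (99), ATCG00570 (77), ATMG00580 (84) and ATMG01330 (77).

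Seedlings of the Col-0 ecotype (written Col-O in the labels), 3 days old and grown in liquid medium with sucrose, were treated with an N-acylethanolamine (NAE), a fatty acid amide, or with its solvent. The NAE 18:3 groups received 70 µM in the sample labels and the methods and 80 µM in the series text, the NAE 18:2 groups received 40 µM, and the controls received 0.2% DMSO. The doses of the NAEs therefore differed, and lipid type and dose cannot be told apart. Treatment lasted 1 h by the labels and 1 to 3 h by the methods, after which roots, cotyledons or whole seedlings were collected, giving 9 groups of 3 libraries. The methods call the 3 libraries of a group biological replicates but do not say whether their seedlings were grown apart. No label says what a replicate number stands for, and p-values measure the spread between these libraries. RNA was enriched for poly(A) tails and sequenced as stranded libraries with paired 75 bp reads.

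Plastids and mitochondria keep small genomes that encode subunits of photosynthesis, respiration and their own ribosomes, while nearly all other proteins of these organelles are encoded in the nucleus. Plastid genes are read by a bacterial-type polymerase, which needs nuclear sigma factors, and by nuclear phage-type polymerases, and plant mitochondrial genes by phage-type polymerases alone. Unlike nuclear messenger RNA, organelle RNA mostly lacks a stable poly(A) tail, and a tail added in the organelle usually marks the RNA for decay. The counts below are therefore what poly(A) enrichment left of these RNAs and not their abundance in the tissue, and how much each organ or treatment lost at that step was not measured.

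Organelle counts were a small part of every library. Library totals ran from 17781269 to 38635934 counts with a median of 26436942. All 88 plastid members together held 240970 counts over the 27 libraries, of which ATCG00490 held 18.6% and the 10 highest members 58.8%. The 28 mitochondrial members held 881889 counts, and 3 of them, ATMG00020, ATMG01390 and ATMG00030, held 97.8% of these, leaving 19764 counts for the other 25. The sources used here give a gene name or function for 22 members, 16 in the plastid and 6 in the mitochondrion, and the others are given by identifier only.

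For 14 named plastid genes the RefSeq sequence (TAIR10.1) could be read, which allows levels per coding length and a look at runs of A, the bases that poly(A) enrichment binds. Among these 14 genes the longest run of A on the sense strand had 4 to 13 bases. The 7 windows below of 30 bases show these runs in capitals for the genes at both ends of the range and for genes described further on, each read 5′ to 3′ on the sense strand.
clpP: cacaccgtAAAAAAAAAAAAAgacactttg
petD: ttttggactAAAAAAAAAAAAgaaaataat
atpB: tcgatacgtgAAAAAAAAAAcctgggacgt
rpl32: atggcagttccAAAAAAAcgtacttctatc
psbB: cccgcaactgtgAAAAAAtatgctagacgg
cemA: atggcAAAAAAgaaagcattcattcctttt
rpl14: aagaaggaaatccAAAAggaactcgagttt

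The clpP and petD windows lie in introns, at bases 70395 to 70424 (minus strand) and 76726 to 76755 (plus strand) of the plastid genome. The other windows lie in coding sequence, at 54091 to 54120 (minus) for atpB, 113449 to 113478 (plus) for rpl32, 73610 to 73639 (plus) for psbB, 60741 to 60770 (plus) for cemA and 80770 to 80799 (minus) for rpl14. Mean levels in cotyledons, in counts per 1000000 counts (CPM) per kb of coding sequence, were 30.7 for clpP, with a run of 13 A, 14.2 for petD, with 12, 17.9 for atpB, with 10, and 24.5 for rpl14, with only 4. The gene of highest level among the 14 was rpl32, at 43.7 CPM per kb with a run of 7 A, and the lowest was ycf4, an assembly factor of photosystem I, at 3.58 CPM per kb with a run of 5. None of the 14 had a copy in the nuclear chromosomes of at least 95% identity over at least 50% of its length. For the other members no such check was made, and copies of mitochondrial DNA in the nuclear genome can share reads with mitochondrial rows, so their counts are uncertain in that respect.

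The organs differed in opposite directions for the genomes. Plastid members took from 0.00243% to 0.0130% of the counts in the 9 root libraries (median 0.00452%), and from 0.0317% to 0.101% in the 9 cotyledon libraries (median 0.0555%), a median 12.3-fold higher in cotyledons. Mitochondrial members took from 0.107% to 1.07% in roots (median 0.286%) and from 0.0142% to 0.0691% in cotyledons (median 0.0325%), a median 8.82-fold higher in roots. No root library overlapped a cotyledon library for either genome. For both shares the exact permutation test, two-sided and with organ labels permuted within treatment (n = 9 libraries per organ), gave p = 0.00025, the smallest value the 8000 arrangements allow. Within each treatment, 3 libraries against 3 cannot go below an exact permutation p of 0.1, which each of them reached.

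**Figure D1:**
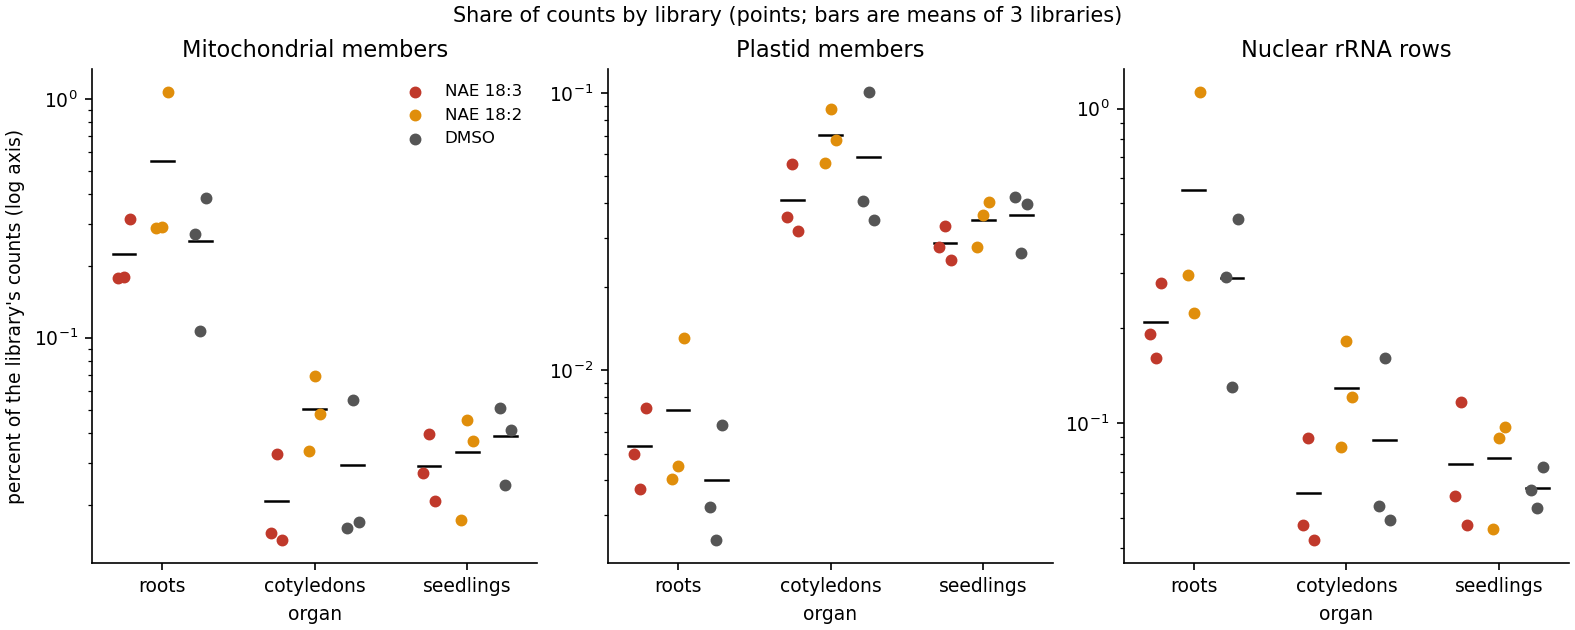
Share of each library's counts from mitochondrial members (left), plastid members (middle) and nuclear ribosomal RNA rows (right), in percent on log axes, by organ and treatment; each point is 1 library and each bar the mean of 3. Root libraries lie below all cotyledon libraries for the plastid (highest root value 0.0130%, lowest cotyledon value 0.0317%) and above them for the mitochondrion (lowest root value 0.107%, highest cotyledon value 0.0691%).

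Whole seedlings lay nearer to cotyledons, with plastid shares from 0.0249% to 0.0423% and mitochondrial shares from 0.0172% to 0.0508%. Each root library held 35.8 to 84.2 mitochondrial counts per plastid count (median 60.6), each cotyledon library 0.391 to 0.791 (median 0.543) and each seedling library 0.619 to 1.25 (median 0.975). In these bulk samples, fewer cells of a type, fewer organelles per cell and less RNA per organelle cannot be told apart. The dissected organs were set against nuclear markers of green tissue and of the root. The summed level of 8 green-tissue markers (such as RBCS1A, the small subunit of Rubisco, and LHCB5, a light-harvesting protein) was 28.3 to 487 CPM in roots and 33676 to 42992 CPM in cotyledons, with no marker at 0 in all libraries of either organ. The value of 487 CPM belonged to 1 library, NAE 18:3 roots replicate 3, and the next highest root library had 49.3 CPM. The summed level of 8 root markers (such as CASP1 of the endodermis and the root hair gene COBL9) was 57.8 to 349 CPM in roots and 1.40 to 22.5 CPM in cotyledons. The stem cell niche gene WOX5, 1 of the 8, averaged 6.79 CPM over the root libraries and 7.80 CPM over the cotyledon libraries, and the other 7 summed to 48.1 to 341 CPM in roots and 0.104 to 0.715 CPM in cotyledons.

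The root markers also differed with treatment. The 7 other than WOX5 summed to 54.1, 48.1 and 53.9 CPM in NAE 18:3 roots, 119, 179 and 158.5 CPM in NAE 18:2 roots and 223, 163 and 341 CPM in DMSO roots, so that NAE 18:3 roots lay below all other root libraries. In cotyledons the 7 stayed at 0.715 CPM or less in every library, while WOX5 had 15.5, 19.6 and 22.2 CPM in NAE 18:3 cotyledons, 2.62, 1.77 and 3.06 CPM in NAE 18:2 cotyledons and 0.879, 2.19 and 2.29 CPM in DMSO cotyledons. In seedlings the 7 summed to 19.3, 2.19 and 2.22 CPM in NAE 18:3 libraries, 2.39, 34.995 and 2.29 CPM in NAE 18:2 libraries and 77.4, 79.1 and 51.4 CPM in DMSO libraries. Both NAE groups thus lay below DMSO, and 4 NAE seedling libraries stood apart with levels of 2.19 to 2.39 CPM. The part of these shifts in the treatment results of roots and cotyledons was not tested, and the seedling results are given below with and without these 4 libraries.

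Another RNA without a stable tail, nuclear ribosomal RNA, moved in part with the organelle shares. Its 4 rows in the table, of which AT3G41768 held 99.2% of the counts, took from 0.130% to 1.13% of counts in roots (median 0.278%) and from 0.0423% to 0.183% in cotyledons (median 0.0838%), with overlap between organs (exact stratified permutation p = 0.0005, two-sided). In every root and cotyledon group, the library with the highest plastid and mitochondrial shares of its group also had the most ribosomal RNA. The same held in NAE 18:3 seedlings, for the plastid share only in NAE 18:2 seedlings, and for neither share in DMSO seedlings. NAE 18:2 roots replicate 3 had 1.13% ribosomal RNA, 1.07% mitochondrial and 0.0130% plastid counts, while replicates 1 and 2 of that group had 0.296% and 0.225%, 0.286% and 0.289%, and 0.00405% and 0.00452%. DMSO cotyledons replicate 2 had 0.161% ribosomal RNA and 0.101% plastid counts, while replicates 1 and 3 had 0.0544% and 0.0491%, and 0.0409% and 0.0349%.

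Set against ribosomal RNA in place of all counts, both organ differences remained. There were 0.0111 to 0.0263 plastid counts per ribosomal RNA count in roots and 0.479 to 0.753 in cotyledons, a median 35.7-fold higher in cotyledons. There were 0.821 to 1.29 mitochondrial counts per ribosomal RNA count in roots and 0.294 to 0.401 in cotyledons, a median 2.76-fold higher in roots, so that the root excess of mitochondrial counts was smaller on this scale. Neither measure overlapped between organs, and each reached p = 0.00025 in the exact stratified permutation test. This denominator was chosen after the data had been seen, and the part of the loss at poly(A) enrichment in either difference was not tested.

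**Figure D2:**
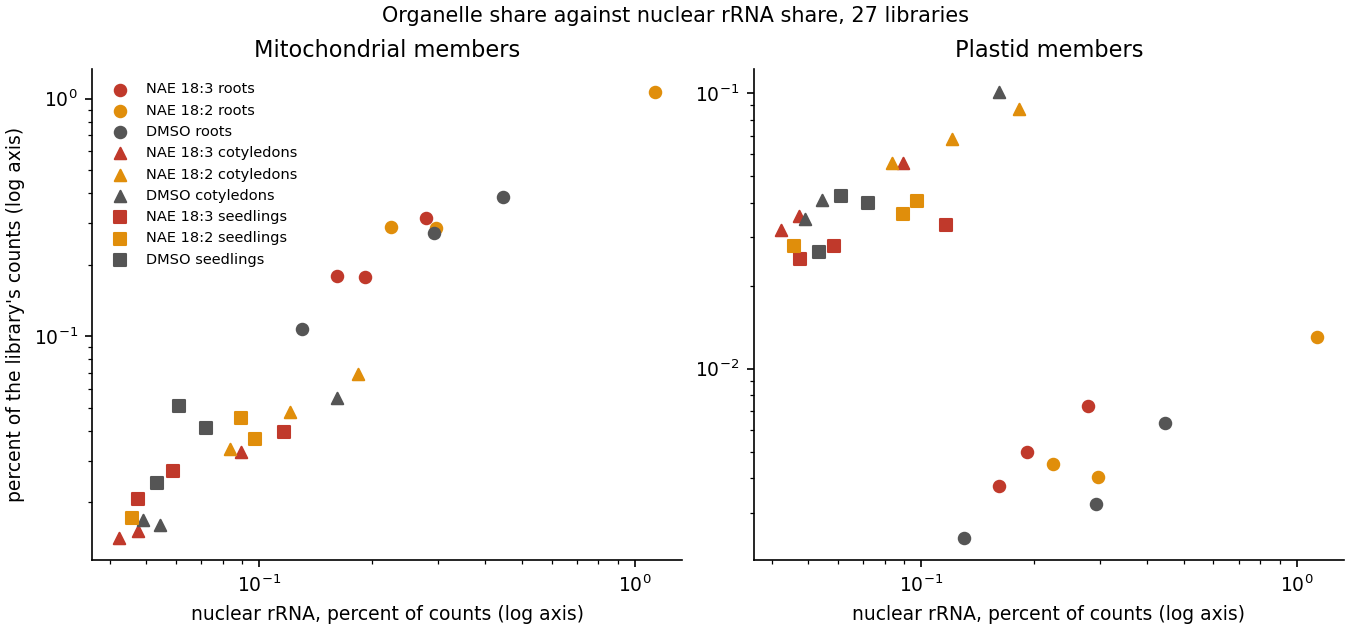
Share of each library's counts from mitochondrial members (left) and plastid members (right) against the share from nuclear ribosomal RNA, all in percent on log axes, for the 27 libraries; colours mark treatments and shapes mark organs. NAE 18:2 roots replicate 3 is the point farthest to the right, at 1.13% ribosomal RNA, and roots lie apart from cotyledons at like ribosomal RNA shares in both panels.

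Gene by gene, DMSO roots were set against DMSO cotyledons in a fit of all 27 libraries, and a gene was called at an adjusted p under 0.01 (edgeR quasi-likelihood test, Benjamini-Hochberg over 21643 genes) with an absolute log2 fold change over 1. In this comparison 22.4% of all genes tested were called lower in roots and 20% higher, and the median over all genes was 0.01. Of the 88 plastid members, 86 passed the filter on low counts and 82 were called lower in roots, with none higher. Without that filter all 88 were tested and 84 were called lower. The median log2 fold change over the 86 was −4.35. Of the 28 mitochondrial members, all were tested, 14 were called higher and none lower, and the median log2 fold change was 2.04, with all 28 values above 0. At an adjusted p under 0.05, 84 plastid members were lower (34.4% of all genes) and 24 mitochondrial members were higher (34.5%). The members were selected on their summed count over these same libraries, so that a member high in 1 organ could enter through it, and with this difference between organs known.

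**Figure D3:**
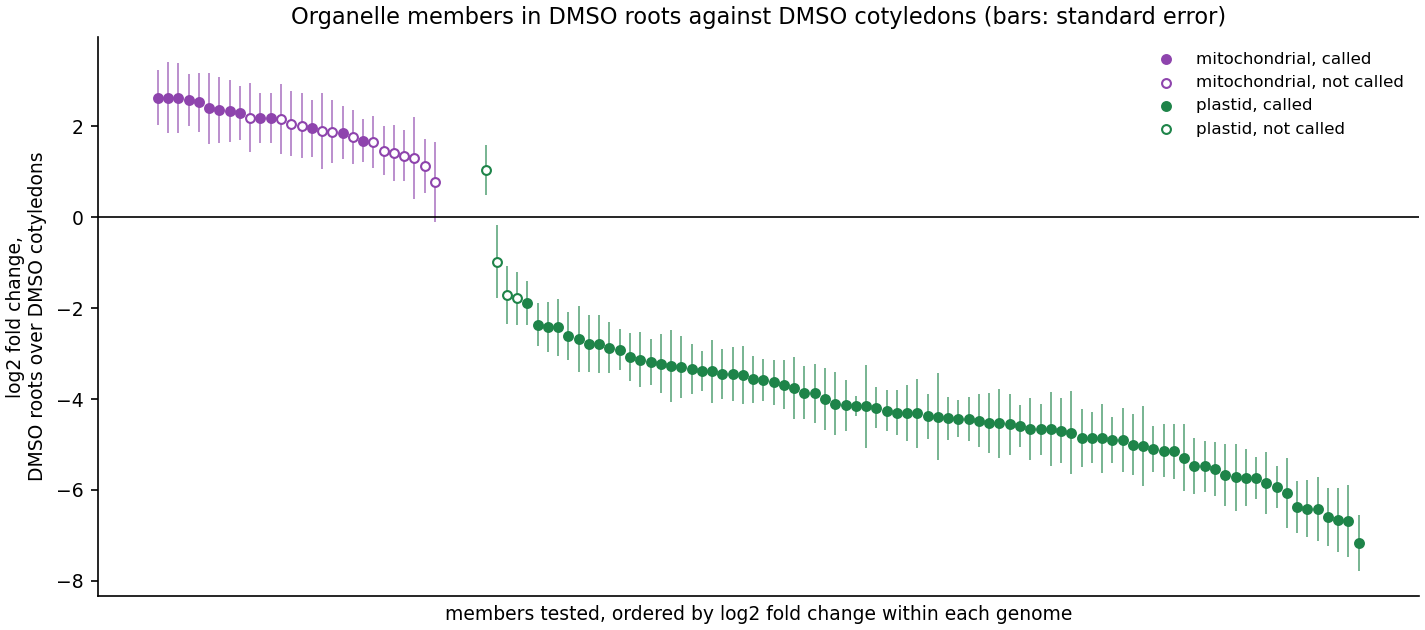
Log2 fold change of each organelle member tested in DMSO roots over DMSO cotyledons, ordered within each genome, with bars for the standard error; filled points were called and open points were not. Plastid members run from −7.17 to 1.05 and mitochondrial members from 0.77 to 2.63.

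Genes of the photosynthetic complexes were far lower in DMSO roots, and the antenna genes of photosystem II had the 2 largest falls among the 16 named plastid members. For psbB, the CP47 antenna of photosystem II, DMSO roots had 0.287, 0.183 and 0.306 CPM, and DMSO cotyledons had 14.2, 41.2 and 11.5 CPM. The groups did not overlap, as held for 61.3% of all genes in this comparison, and the log2 fold change was −6.41 (SE 0.62, adjusted p = 9.41e-09). The CP43 antenna psbC fell by 5.85 on the log2 scale, and psaB, a core subunit of photosystem I, fell by 5.13. For atpB, the beta subunit of the plastid ATP synthase, DMSO roots had 0.574, 0.732 and 1.64 CPM and DMSO cotyledons 25.7, 38.7 and 22.05 CPM, with a log2 fold change of −4.90 (SE 0.50).

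Genes of plastid gene expression and of protein turnover fell as well. The 5 ribosomal protein genes rps3, rps12, rpl14, rpl20 and rpl32 were all called lower in roots, with a median log2 fold change of −4.43 and values from −5.74 for rpl32 to −2.37 for rpl20. For clpP, the proteolytic subunit of the Clp protease, DMSO roots had 1.32, 0.610 and 2.68 CPM and DMSO cotyledons 16.4, 21.4 and 16.7 CPM, and its log2 fold change was −3.59 (SE 0.46). The cytochrome b6f genes petD and petA had log2 fold changes of −4.86 and −3.69, and ycf4 fell by 2.41. The envelope protein gene cemA fell by 3.86, and ATCG00430, annotated as photosystem II reaction center protein G, fell by 5.48. All 16 named plastid members were called lower, with log2 fold changes from −6.41 to −2.37.

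The members at both ends of the plastid range have no name in the sources used here. ATCG00490, the plastid member with the most counts, had 1.61, 0.977 and 1.91 CPM in DMSO roots, against 76.3, 252 and 55.3 CPM in DMSO cotyledons, and its log2 fold change was −6.42 (SE 0.71). It also took a smaller part of the plastid counts in roots, 3.85% to 7.60% over the 9 root libraries against 12.7% to 24.2% over the 9 cotyledon libraries (exact stratified permutation p = 0.00025, the smallest possible). The gene was picked on counts summed over these same libraries. Cotyledons held 140484 plastid counts and roots 11236, so this p-value is not independent of that choice. ATCG00080 had 0, 1 and 1 counts in DMSO roots and 86, 104 and 72 counts in DMSO cotyledons. By summed counts over unscaled library totals it was 117-fold higher in cotyledons, with an exact 95% interval for counting error from 32.1 to 973. Its fitted log2 fold change of −7.17 is on the TMM scale and depends on the prior count.

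The 4 tested members that were not called lower in DMSO roots were ATCG01010 (−1.79), ATCG00510 (−1.72), ATCG01120 (−0.98) and ATCG00500 (1.05). ATCG00500 had 1.46, 0.794 and 3.79 CPM in DMSO roots and 0.919, 1.40 and 0.583 CPM in DMSO cotyledons, so the groups overlapped, and its adjusted p was 0.0959. The same gene had 2.39, 2.25 and 7.63 CPM in NAE 18:2 roots against 0.727, 1.56 and 0.753 CPM in NAE 18:2 cotyledons, and 3.07, 2.37 and 3.11 CPM in NAE 18:3 roots against 0.536, 1.27 and 0.476 CPM in NAE 18:3 cotyledons. It was called higher in roots under NAE 18:2 (log2 fold change 2.00, adjusted p = 0.00246) and under NAE 18:3 (1.88, adjusted p = 0.0049), the only plastid member called higher in roots in any of the 3 organ comparisons.

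The mitochondrial members of most counts were close to each other in their root excess. ATMG00020 had 895, 384 and 1545 CPM in DMSO roots and 87.3, 310 and 91.6 CPM in DMSO cotyledons, and its log2 fold change was 2.53 (SE 0.65, adjusted p = 0.00165). ATMG01390 followed with 2.63 (SE 0.61) and ATMG00030 with 2.58 (SE 0.57). ATMG00020 took 42.6% to 53.0% of mitochondrial counts in roots and 39.5% to 50.6% in cotyledons (exact stratified permutation p = 0.363), and the parts of ATMG01390 (p = 0.9935) and ATMG00030 (p = 0.9525) did not differ past the threshold either. The other 25 members took 1.59% to 3.11% of mitochondrial counts in roots and 2.48% to 5.15% in cotyledons, lower in roots by the same exact permutation test (p = 0.00025) with overlap between the organs. The members of most counts were picked on counts summed over these same libraries. Roots held 707894 mitochondrial counts and cotyledons 83272, so this p-value is not independent of that choice.

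The named respiratory genes had few counts. For atp9, annotated as subunit 9 of the mitochondrial ATP synthase, DMSO roots had 13, 4 and 17 counts. DMSO cotyledons had 1, 2 and 1 counts, and the gene was called higher in roots (log2 fold change 2.62, SE 0.77, adjusted p = 0.00463). Its summed counts were 34, 66 and 82 in DMSO, NAE 18:2 and NAE 18:3 roots. They were 4, 7 and 9 in the same cotyledon groups and 7, 6 and 15 in the same seedling groups. The gene thus reached the minimum of 100 summed counts through roots, so its root excess is not independent of that selection. For nad7, a subunit of complex I, DMSO roots had 2.15, 0.641 and 1.84 CPM and DMSO cotyledons 0.240, 0.793 and 0.333 CPM, with overlap between the groups. None of the 3 complex I genes was called in DMSO roots, at log2 fold changes of 1.77 for nad7 (adjusted p = 0.0119), 1.88 for nad1 (0.0209) and 1.31 for nad2 (0.205). The gene orf25, the b subunit of the mitochondrial ATP synthase, had 1.46 (0.0203).

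Under both NAEs the organ difference kept its directions. NAE 18:3 roots against NAE 18:3 cotyledons gave 73 plastid members lower and 22 mitochondrial members higher, where 25.5% of genes tested were called lower and 19.1% higher. NAE 18:2 roots against NAE 18:2 cotyledons gave 78 plastid members lower and all 28 mitochondrial members higher, where 22.5% of genes were called lower and 23.2% higher. The number of mitochondrial calls in DMSO rested on single libraries. It was 2 without DMSO roots replicate 3, and 3 without either DMSO cotyledons replicate 1 or replicate 3, while the plastid number stayed between 76 and 86 without any 1 library. Scaled to nuclear ribosomal RNA, 85 plastid members were called lower and 5 mitochondrial members higher in DMSO roots.

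Nuclear genes for organelle transcription and RNA decay fell in roots on the plastid side. Of 6 sigma factors, which direct the bacterial-type plastid polymerase to its promoters, 5 were called lower in DMSO roots, where 22.4% of all genes tested were, with log2 fold changes of −9.63 for SIG4, −5.26 for SIG6, −4.70 for SIG1, −4.62 for SIG2 and −3.26 for SIG3. SIG5 was not called (0.30, SE 0.41). All 12 genes for proteins associated with that polymerase (PAP1 to PAP12) were lower, with a median of −3.44. Of the phage-type polymerases, the plastid enzyme RPOTp was lower (−2.41), while the mitochondrial enzyme RPOTm (−0.07) and the enzyme of both organelles RPOTmp (0.08) were not called. Of the decay enzymes, the plastid polynucleotide phosphorylase (−3.37) and the exoribonuclease RNR1 (−2.53) were lower, and the mitochondrial polynucleotide phosphorylase was not called (0.41, SE 0.20).

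NAE treatment called few organelle genes in any organ. For each NAE against DMSO in cotyledons and in roots, 0 members of either genome were called by edgeR at the same thresholds in the fit of the 9 libraries of the organ. Of all genes tested, 8.82% (NAE 18:3) and 0.725% (NAE 18:2) were called in cotyledons, and 22.7% (NAE 18:3) and 8.70% (NAE 18:2) in roots. At an unadjusted p under 0.05 there were 2 plastid members and 0 mitochondrial members under NAE 18:3 in roots, where 63% of all genes tested passed, and 8 and 7 under NAE 18:2, where 45.4% did. In cotyledons there were 1 plastid member and 0 mitochondrial members under each NAE, where 40.4% (NAE 18:3) and 25.5% (NAE 18:2) of genes passed. DESeq2 called 1 of these members, nad1 in NAE 18:2 roots. In roots, only 43 plastid members had enough counts to be tested, against 85 in cotyledons and 83 in seedlings, and the mitochondrial members tested were 28 in roots, 14 in cotyledons and 19 in seedlings.

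**Figure D4:**
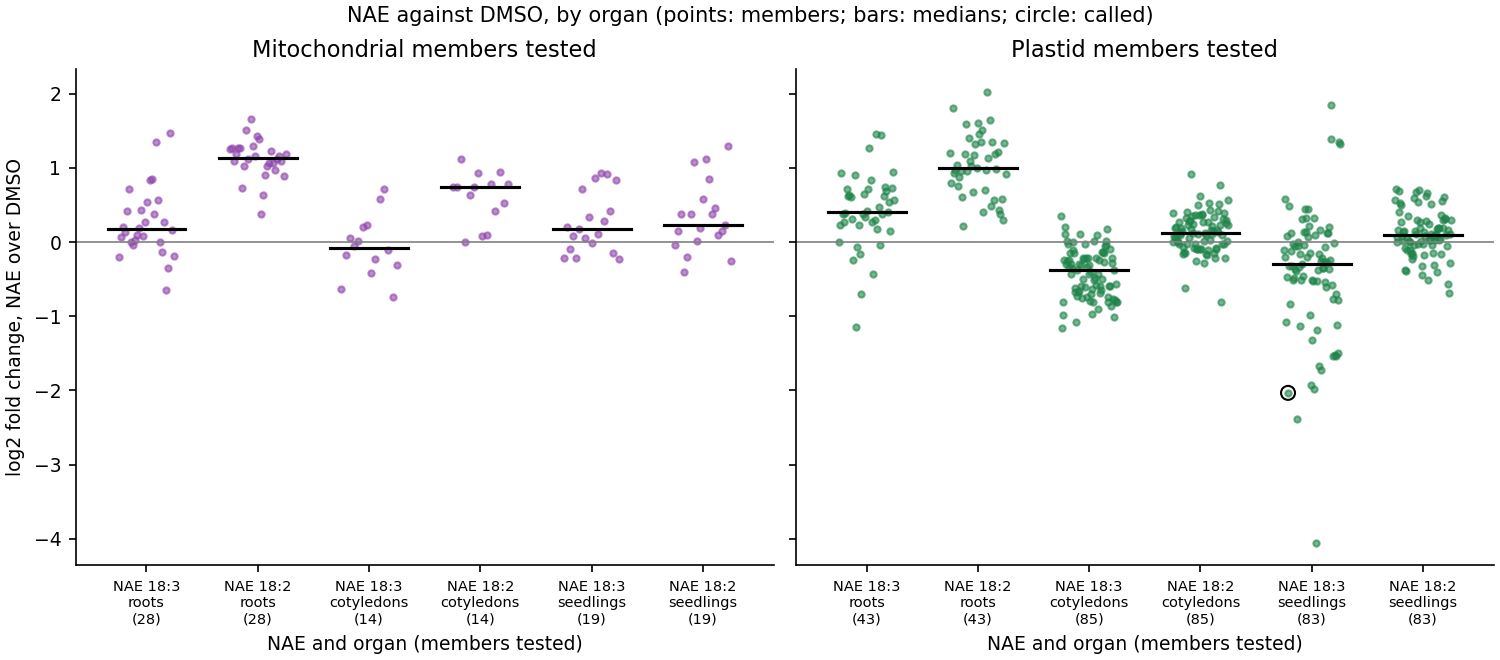
Log2 fold change of each organelle member tested, NAE over DMSO, by NAE and organ, for mitochondrial members (left) and plastid members (right); points are members, bars are their medians and a circle marks a called member. The 1 called member is ATCG00080 in NAE 18:3 seedlings, at −2.03.

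In roots, 1 library carried most of the NAE 18:2 difference. Mitochondrial members took 0.286%, 0.289% and 1.07% of counts in NAE 18:2 roots and 0.271%, 0.107% and 0.385% in DMSO roots (exact permutation p = 0.4, two-sided, n = 3 each, smallest possible 0.1). The median log2 fold change of the tested mitochondrial members, 1.14, became 0.31 without NAE 18:2 roots replicate 3, the library with the most ribosomal RNA, and that of the plastid members, 0.99, became 0.19. The complex I gene nad1 had 1.07, 1.31 and 3.48 CPM in NAE 18:2 roots and 0.804, 0.488 and 0.497 CPM in DMSO roots. These groups did not overlap, as held for 39.8% of all genes in this comparison, and the log2 fold change of 1.66 (SE 0.47) had an edgeR adjusted p of 0.0247, where 33.9% of genes tested were under 0.05. For psbB, NAE 18:2 roots had 0.520, 0.637 and 2.11 CPM, against 0.287, 0.183 and 0.306 CPM in DMSO roots, at an adjusted p of 0.0297.

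Under NAE 18:3 the root libraries were closer to DMSO. Mitochondrial shares were 0.178%, 0.180% and 0.314% in NAE 18:3 roots and 0.271%, 0.107% and 0.385% in DMSO roots, and plastid shares were 0.00497%, 0.00374% and 0.00732% in NAE 18:3 roots and 0.00322%, 0.00243% and 0.00635% in DMSO roots, both with overlap. Per ribosomal RNA count, plastid counts were 0.0252 ± 0.0017 in NAE 18:3 roots, against 0.0151 ± 0.0045 in NAE 18:2 roots and 0.0147 ± 0.0038 in DMSO roots (SD, n = 3 each). NAE 18:3 roots overlapped neither other group (exact permutation p = 0.1 each, the smallest possible). The green-tissue markers are given beside this ratio, and their part in it was not tested. Their summed level was 48.5, 38.58 and 487 CPM in NAE 18:3 roots, 49.3, 28.3 and 35.5 CPM in NAE 18:2 roots and 29.9, 39.7 and 48.2 CPM in DMSO roots, with none of the 8 at 0 in NAE 18:3 or DMSO roots and 1 at 0 in NAE 18:2 roots. In NAE 18:3 roots the ratio was 0.0260 and 0.0232 in replicates 1 and 2 and 0.0263 in replicate 3, which alone had the high marker level.

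The gene atp9 took a larger part of the mitochondrial counts in NAE 18:3 roots. It had 37, 21 and 24 counts in NAE 18:3 roots and 13, 4 and 17 counts in DMSO roots, which did not overlap, as held for 52.1% of all genes in this comparison, and its log2 fold change of 1.35 (SE 0.61, edgeR adjusted p = 0.0845) was not called. Scaled to the mitochondrial counts of each library, a setting chosen after the data had been seen, atp9 was called higher in NAE 18:3 roots both over DMSO (1.62, SE 0.39, adjusted p = 0.00615) and over NAE 18:2 (1.66, SE 0.37, adjusted p = 0.00548). ATMG01120 was also called higher over NAE 18:2 in this edgeR setting (1.00, SE 0.22, adjusted p = 0.00519). All members outside the 3 of most counts together took 3.11%, 2.89% and 2.07% of mitochondrial counts in NAE 18:3 roots. They took 1.83%, 1.82% and 1.72% in NAE 18:2 roots and 1.59%, 2.33% and 1.93% in DMSO roots. NAE 18:3 against NAE 18:2 roots called 0 members of either genome in edgeR and in DESeq2, where 17.2% of genes tested were called, with 2 plastid and 6 mitochondrial members at an unadjusted p under 0.05 (59.2% of all genes). Scaled to ribosomal RNA, 3 mitochondrial members (ATMG00090, ATMG01120 and atp9) and 3 plastid members, cemA and psbB among them, were called higher in NAE 18:3 roots than in DMSO roots.

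In cotyledons the group means of the NAEs lay on either side of DMSO. Mitochondrial members took 0.0206% ± 0.0103 of counts in NAE 18:3 cotyledons, 0.0503% ± 0.0178 in NAE 18:2 cotyledons and 0.0292% ± 0.0222 in DMSO cotyledons, and plastid members took 0.0410% ± 0.0127, 0.0704% ± 0.0159 and 0.0590% ± 0.0366 in the same groups (SD, n = 3 each). NAE 18:3 and NAE 18:2 cotyledons did not overlap for either genome (exact permutation p = 0.1 each, the smallest possible). Over the 18 comparisons of this kind, 9 for each genome, the lowest Benjamini-Hochberg adjusted value was 0.771.

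Gene by gene, NAE 18:3 against NAE 18:2 cotyledons called 0 members in edgeR, where 4.33% of genes tested were called, with 7 plastid and 2 mitochondrial members at an unadjusted p under 0.05 (35.7% of all genes) and 0 called by DESeq2. The replicate number was taken to pair these groups because deviations from the group means were correlated at over 0.1 for each number. No label gives this pairing, and the correlations were only 0.126, 0.144 and 0.167. With the replicate number as a block, 3 plastid and 2 mitochondrial members were called lower in NAE 18:3 cotyledons. These were ATCG00950 (−1.60), ATCG00580 (−1.33), ATCG00040 (−1.10), ATMG00020 (−1.48) and ATMG01390 (−1.12). ATMG00020 had 73.5, 176 and 66.8 CPM in NAE 18:3 cotyledons and 171, 374 and 262 CPM in NAE 18:2 cotyledons, lower in NAE 18:3 at each of the 3 replicate numbers although the groups overlapped. Ribosomal RNA moved the same way, with 0.0474%, 0.0895% and 0.0423% of counts in NAE 18:3 cotyledons and 0.0838%, 0.183% and 0.121% in NAE 18:2 cotyledons. Scaled to it, the median log2 fold change of the tested members turned positive, to 0.43 in the plastid and 0.30 in the mitochondrion, against −0.57 and −0.66 without that scaling. Under this scaling 1 plastid member was called, rpl32, which was higher in NAE 18:3 cotyledons (1.75).

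In whole seedlings, NAE 18:3 against DMSO called 1 organelle gene, the plastid gene ATCG00080, where 0.631% of genes tested were called lower and 1.28% higher. ATCG00080 had 15, 26 and 14 counts (0.469, 0.877 and 0.478 CPM) in NAE 18:3 seedlings, 110, 97 and 70 counts (4.10, 2.74 and 3.09 CPM) in NAE 18:2 seedlings and 55, 71 and 59 counts (2.01, 2.83 and 2.57 CPM) in DMSO seedlings. All 3 NAE 18:3 libraries lay below all 6 others. NAE 18:2 seedlings replicates 1 and 3, which had root markers nearly as low as NAE 18:3 replicates 2 and 3, had 4.10 and 3.09 CPM of it. These libraries also differ in lipid and dose, and the part of root content in the level of this gene was not tested. The log2 fold change over DMSO was −2.03 (SE 0.32, edgeR adjusted p = 0.0096). The call was close to the threshold and was lost with replicate block, with size factors in place of TMM, without a filter on low counts, with only the 6 libraries compared, with scaling to ribosomal RNA, and without each library of the comparison except NAE 18:3 seedlings replicate 1 (adjusted p from 0.0082 to 0.0479), while DESeq2 called 9 plastid members lower and 1 higher. Scaled to the plastid counts of each library, ATCG00080 was not called (−2.02, adjusted p = 0.0151) and another plastid gene, ATCG00920, was called higher (1.96, adjusted p = 0.00994). Without the 4 seedling libraries of low root markers, ATCG00080 had a log2 fold change of −2.38. This setting was chosen after the data had been seen and leaves 1 library in each NAE group, so only the effect size is given.

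At an adjusted p under 0.05, where 9.13% of genes tested were lower and 13.1% higher, 11 plastid members were lower and 2 higher in NAE 18:3 seedlings. The lower members included ATCG00220, with 5, 9 and 9 counts in NAE 18:3 seedlings, 66, 32 and 41 in NAE 18:2 seedlings and 22, 38 and 39 in DMSO seedlings. ATCG00590 had 1, 1 and 0 counts in NAE 18:3 seedlings, 21, 18 and 18 in NAE 18:2 seedlings and 5, 17 and 10 in DMSO seedlings. By summed counts over unscaled library totals it was 22.4-fold higher in DMSO than in NAE 18:3 seedlings, with an exact 95% interval for counting error from 5.73 to 193. For the ribosomal protein gene rpl32, NAE 18:3 seedlings had 0.750, 1.82 and 1.23 CPM, NAE 18:2 seedlings 7.20, 3.56 and 6.13 CPM and DMSO seedlings 2.16, 4.82 and 3.96 CPM, with a log2 fold change over DMSO of −1.54 (SE 0.44, adjusted p = 0.0401). NAE 18:3 seedlings lay below every library of the other groups for each of these genes, where 38.1% of all genes did not overlap between NAE 18:3 and DMSO seedlings and 8.32% between NAE 18:3 and NAE 18:2 seedlings. Root markers differed beside these genes, as given above, and the 8 green-tissue markers summed to 24145, 34288 and 30973 CPM in NAE 18:3 seedlings, 34421, 21044 and 36672 CPM in NAE 18:2 seedlings and 22506, 25552 and 25850 CPM in DMSO seedlings, with overlap. Without the 4 libraries of low root markers, all 13 members had the same direction. That was largely set beforehand, since these members were chosen in a fit that held the 1 NAE 18:3 library and the DMSO libraries kept. It cannot show what part root content had.

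The other lower members were cemA, of the plastid envelope (−1.33), ATCG00040, ATCG00510, ATCG00650, ATCG00690, ATCG01090 and ATCG01130, with log2 fold changes from −1.92 to −1.08. The higher members were ATCG00920 and ATCG00950. ATCG00920 had 50, 85 and 37 counts in NAE 18:3 seedlings, 13, 30 and 22 in NAE 18:2 seedlings and 17, 7 and 15 in DMSO seedlings, a log2 fold change over DMSO of 1.85 (SE 0.47). ATCG00950 had 81, 147 and 63 counts in NAE 18:3 seedlings, 25, 51 and 41 in NAE 18:2 seedlings and 45, 22 and 25 in DMSO seedlings, a log2 fold change of 1.39 (SE 0.42). The plastid share as a whole overlapped, at 0.0279%, 0.0332% and 0.0249% in NAE 18:3 seedlings and 0.0423%, 0.0265% and 0.0397% in DMSO seedlings.

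**Figure D5:**
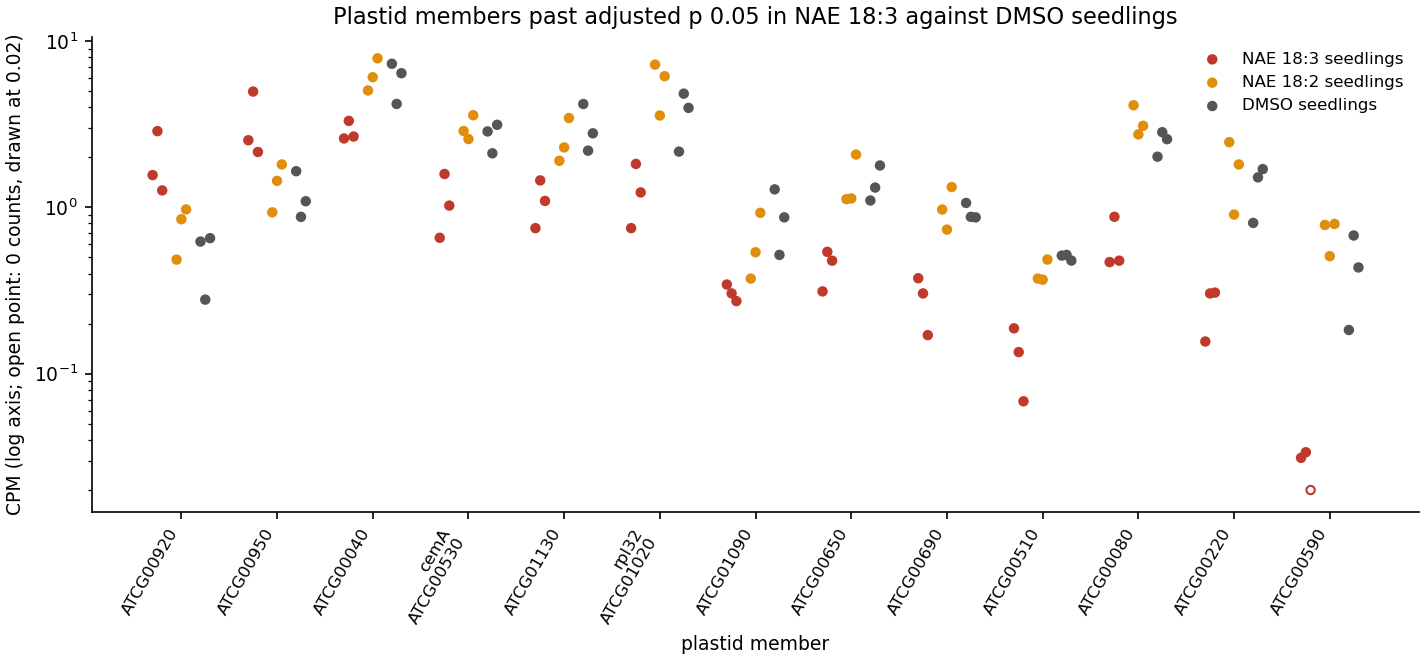
CPM of the 13 plastid members past an adjusted p of 0.05 in NAE 18:3 against DMSO seedlings, on a log axis, 3 libraries each of NAE 18:3, NAE 18:2 and DMSO seedlings; an open point had 0 counts. For ATCG00080 the NAE 18:3 libraries lie between 0.469 and 0.877 CPM, below all libraries of the other groups.

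The median of short nuclear genes was lower under NAE 18:3 in each organ. The 191 nuclear genes tested with at most 250 bases of exon had a median log2 fold change of −0.60 in NAE 18:3 against DMSO seedlings, while the 9883 genes of 1000 to 2000 bases had −0.00. The shortest class had −0.61 in NAE 18:3 cotyledons and −0.89 in NAE 18:3 roots against DMSO. In NAE 18:2 against DMSO it had −0.00 in seedlings, −0.31 in cotyledons and −0.45 in roots. The rpl32 coding sequence has 159 bases and that of cemA 690, and the part of gene length in the falls of the plastid members in seedlings was not tested.

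In NAE 18:2 against DMSO seedlings 0 members were called in edgeR, where 0.880% of genes were called, with 0 plastid members and 1 mitochondrial member at an unadjusted p under 0.05 (30.9% of all genes) and 0 called by DESeq2. In NAE 18:3 against NAE 18:2 seedlings 0 members were called in edgeR, where 0% of genes were called, although 20 plastid members (24.1% of those tested, against 3.3% of all genes) had an unadjusted p under 0.05. DESeq2 called 3 plastid members there, ATCG00080, ATCG00220 and rpl32, all lower in NAE 18:3. The NAE comparisons share their DMSO libraries.

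The NAE effect in roots was set against that in cotyledons by an interaction term in the fit of all 27 libraries. For both NAEs 0 members were called, where 15.4% of genes were called for NAE 18:3 and 2.92% for NAE 18:2, and DESeq2 also called 0. At an unadjusted p under 0.05 there were 8 plastid and 0 mitochondrial members for NAE 18:3, where 47.9% of all genes passed, and 10 and 1 for NAE 18:2, where 29.3% did. For NAE 18:3, where 39.8% of genes were under an adjusted p of 0.05, rpl32 was among them with an interaction of 1.63 on the log2 scale (SE 0.63, adjusted p = 0.0439). On the nuclear side, PAP7 (1.07, adjusted p = 0.000412) and the plastid polynucleotide phosphorylase (1.27, adjusted p = 0.000511) were called for NAE 18:3 in the same test, and so was 1 of the 8 green-tissue markers, CA1 (3.26).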

How the data were processed

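Poly(A)-enriched RNA of 27 libraries, 9 groups of 3, was measured. The authors deposited whole-number counts per gene, not normalized, made with STAR alignment and the TAIR10 genome, and the counting program and its use of strand are not given in the sources used here. A second deposited table holds a normalized signal, which equals the counts divided by 1 size factor per library (0.795 to 1.40). It was not used for tests. No column of values was left out (0 columns). Totals ran from 17781269 to 38635934 counts per library, and intervals cover counting error only, since reads carried no molecular identifiers.

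Counts were fitted with edgeR 4.0.16 in R 4.3.3 (TMM scaling, filterByExpr, robust quasi-likelihood test), per organ with 9 libraries for treatments and with all 27 for organs and interactions, and p-values were adjusted over all genes tested. The calling thresholds were 0.01 for the adjusted p and 1 for the size of the log2 fold change. CPM are scaled by TMM, whereas shares are of all counts. Differences of mean shares and of mean ratios were tested by exact permutation. SciPy 1.17.1 gave the Benjamini-Hochberg adjustment of the share tests and the intervals for counting error. DESeq2 1.42.0 was an alternative. BLAST+ 2.17.0 searched nuclear copies, and sequences came from RefSeq (TAIR10.1). The procedure was tested on simulated counts.

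Members and lists were chosen with earlier results of these data known. Members named in the text are those of most counts (a length was at hand for 14 only, so that the planned ranking per kilobase was replaced), up to 5 called per genome and direction with the largest fold change and no overlap (the 3 with the smallest adjusted p where none was called), a list of well known genes, those next to the count minimum of 100, and members chosen after their values were seen, such as ATCG00500 and the seedling genes past an adjusted p of 0.05. The replicate number was taken to pair groups whose correlations of deviations were over 0.1 at each number, a pairing that no label gives. By this rule it paired NAE 18:2 with NAE 18:3 cotyledons (0.126, 0.144 and 0.167) and with DMSO cotyledons (0.411, 0.160 and 0.317). It paired no other groups, and NAE 18:3 with DMSO cotyledons fell short (0.057, 0.121 and 0.125). The values of 1 member are not reported here. Alternatives were other scalings, filters, tests, sets of libraries and denominators.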

Additional observations from a re-analysis of the deposited data

Results flagged for a closer look

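For the plastid ribosomal protein gene rpl32 (ATCG01020), the interaction test of the NAE 18:3 effect in roots against cotyledons gave an adjusted p of 0.0439 (edgeR). The gene was not called, since the calling threshold was 0.01. In this test 39.8% of all genes had an adjusted p under 0.05. The effect in roots exceeded that in cotyledons by 1.63 on the log2 scale. The gene rpl32 had 0.524, 0.300 and 0.543 CPM in NAE 18:3 roots, against 0.115, 0.122 and 0.230 CPM in DMSO roots, and 9.29, 8.75 and 5.50 CPM in NAE 18:3 cotyledons, against 7.07, 10.8 and 7.08 CPM in DMSO cotyledons.

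For rpl32 and cemA every NAE 18:3 library lay above every DMSO library in roots and below every one in seedlings, a difference between organs that was not tested. Of all genes, 52.1% did not overlap in roots and 38.1% in seedlings. The log2 ratio of mean CPM was 1.55 in roots and −1.52 in seedlings for rpl32, a gap of 3.08. For cemA (ATCG00530) it was 1.43 in roots and −1.31 in seedlings, a gap of 2.74. The cemA gene had 0.785, 0.700 and 1.28 CPM in NAE 18:3 roots, against 0.345, 0.0305 and 0.650 CPM in DMSO roots, and 0.656, 1.59 and 1.02 CPM in NAE 18:3 seedlings, against 2.86, 2.11 and 3.13 CPM in DMSO seedlings. Root levels of these genes rest on few counts.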

How the results depend on the processing

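The organ difference in shares kept its direction under every alternative run. Among checks on counts of calls, medians and shares, 840 left the result as it was, 45 moved it and 21 turned its direction, and among checks on single members 1476 changed no call or direction, 38 gained a call, 31 lost one and 4 turned. The cause of these shifts was not tested.

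With the replicate block, NAE 18:3 against NAE 18:2 cotyledons had 3 plastid and 2 mitochondrial calls in place of 0. NAE 18:3 against DMSO seedlings, where the numbers were not taken to pair libraries, had 0 plastid calls in place of 1. The block moved no other count of calls by over 1.5 times. The seedling count was also 0 with RLE size factors, with no low-count filter, with ribosomal RNA scaling and with only the 6 libraries compared, 10 in DESeq2 and 4 with all 27 libraries, and 0 to 1 with 1 library left out. NAE 18:3 against NAE 18:2 seedlings had 3 plastid calls in DESeq2 and 4 with all 27 libraries, and NAE 18:2 roots had 1 mitochondrial call in DESeq2. In DMSO roots against DMSO cotyledons, mitochondrial calls numbered 22 with upper quartile scaling, 7 with only the 6 libraries compared and 2 to 21 with 1 library left out. The NAE 18:3 interaction had 0 to 1 plastid calls with 1 library left out.

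Scaling to ribosomal RNA, chosen after the data had been seen, gave plastid medians of 0.43 (NAE 18:3 against NAE 18:2 cotyledons), 0.75 (the same in roots), 0.13 (NAE 18:2 roots), −0.26 (NAE 18:2 seedlings) and −5.48 (DMSO organs), and mitochondrial medians of 0.30, 0.49 (NAE 18:3 against NAE 18:2, cotyledons and roots) and 0.92 (DMSO organs). The mitochondrial median in NAE 18:3 against NAE 18:2 roots ran from −1.27 to −0.082 with 1 library left out. Plastid calls under this scaling were 1 in NAE 18:3 against NAE 18:2 in cotyledons and in roots, 3 in NAE 18:3 roots and 4 in the NAE 18:3 interaction, and mitochondrial calls were 3 in NAE 18:3 roots, 3 against NAE 18:2 roots and 5 between DMSO organs. Scaled to the counts of their own genome, calls were 22 plastid and 3 mitochondrial between DMSO organs, 1 plastid in NAE 18:3 against NAE 18:2 cotyledons, and 1 and 2 mitochondrial in NAE 18:3 roots over DMSO and over NAE 18:2. Between DMSO organs this scaling turned ATMG00030 (−0.0076), ATMG00020 (−0.028), clpP (0.60) and ATCG01120 (3.32).

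With ribosomal RNA as denominator these log2 ratios of shares turned: plastid in NAE 18:2 cotyledons (−0.29), in NAE 18:3 cotyledons (0.021), in NAE 18:3 against NAE 18:2 cotyledons (0.31) and roots (0.74), and mitochondrial in NAE 18:3 cotyledons (0.056) and roots (0.28). Without the 3 mitochondrial members of most counts the ratio turned in NAE 18:3 roots (0.27), NAE 18:2 seedlings (0.28) and NAE 18:3 seedlings (0.061). With 1 library left out, plastid ratios ran from −0.013 to 0.893 (NAE 18:2 cotyledons), −0.81 to 0.11 (NAE 18:3 cotyledons), −0.73 to 0.32 (NAE 18:3 against NAE 18:2 roots) and −0.234 to 0.085 (NAE 18:2 seedlings), and mitochondrial ratios from −0.996 to 0.328 (NAE 18:3 cotyledons), −0.55 to 0.24 (NAE 18:3 roots), −0.514 to 0.088 (NAE 18:2 seedlings) and −0.50 to 0.11 (NAE 18:3 against NAE 18:2 seedlings). With 3 libraries or fewer per group, an exact permutation p cannot go below 0.1. None of these share differences could therefore pass the threshold of 0.05, and their tests decide nothing. The alternatives restricted to members with no near copy and to members other than rRNA and tRNA genes were not run, since most members have no name or sequence in the sources used here.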
